A study of Mus musculus with 8 samples.

Results

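In Asbt-/- hosts, CD4+ effector T cells recovered from the small intestinal lamina propria were compared with those recovered from spleen. They were isolated from different organs, and the isolation cannot be told apart from the tissue. Members were 4 of the 8 libraries of the series, taken by their sample titles: shMdr1 and shCD8 cells from small intestine, and shMdr1 and shCD8 cells from spleen. Each library was made from about 10000 sorted cells carrying a congenic marker, 6 weeks after their transfer. All 4 came from C57BL/6 hosts of the genotype Rag1-/- Slc10a2-/-. Rag1 loss leaves a host with no T or B cells of its own, and Slc10a2 encodes Asbt, the bile acid transporter of the ileum. The cells carried the retroviral LMPd construct with a short hairpin against Mdr1 (Abcb1a) or a control hairpin against CD8. The hairpin was read from the titles, since another label field names shMdr1 for all 8 libraries. There was 1 library per combination, and the labels do not say that libraries came from separate animals, so p-values measure only the spread between these libraries. The other 4 libraries are the same cells from Rag1-/- Slc10a2+/+ hosts (Asbt+/+) and were used for the spread and for the comparison between hosts.

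Bile acids are secreted into the small intestine and are taken up again in the ileum by Asbt. T cells in the lamina propria meet them there, whereas T cells in the spleen largely do not. Mdr1 is an efflux pump of the plasma membrane. T cells enter the gut wall with the help of the chemokine receptor CCR9 and the integrin α4β7, and cells that meet antigen there switch on the immediate-early factors of the NR4A, EGR and AP-1 families. The comparison asks how transferred cells in the gut differ from those in a lymphoid organ when the host lacks the ileal transporter.

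Total counts in the 4 libraries ranged from 1821772 to 2767105. Mitochondrial transcripts took 8.62% and 7.27% of the counts in small intestine (shMdr1, then shCD8, the order used throughout) and 26.8% and 17.6% in spleen. Hemoglobin transcripts took 3.69% in shMdr1 spleen and at most 0.109% in the other 3. Among the Asbt+/+ libraries, shCD8 small intestine stood apart, with counts for 8456 genes against 11345 to 13184 in the other 7 libraries. Levels are CPM, a gene's counts scaled to library size, and were made comparable between libraries by TMM factors.

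The sequences shown are the 250 bases before the start sites of the 3 NR4A orphan nuclear receptor genes, of 2 metallothionein genes and of the chaperonin gene Hspe1. These genes, described below, were among the 532 that were at least 2-fold higher in small intestine in both hairpin pairs. The genes shown and the motif for each were picked by hand, so the matches are a description. Sequences are from RefSeq on GRCm38.p6, and the counts themselves were made on mm9. Each is written 5′ to 3′ along the gene's strand.

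In the NR4A windows, capitals mark TGACG, the core of the cAMP response element, on either strand.
Nr4a1, chr15:101266596-101266845, plus strand: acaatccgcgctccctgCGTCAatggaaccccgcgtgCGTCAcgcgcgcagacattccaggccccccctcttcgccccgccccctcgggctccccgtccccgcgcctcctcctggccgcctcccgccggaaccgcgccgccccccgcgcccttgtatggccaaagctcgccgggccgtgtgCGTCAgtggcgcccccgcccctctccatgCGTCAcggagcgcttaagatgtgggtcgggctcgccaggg
Nr4a2, chr2:57124004-57124253, minus strand: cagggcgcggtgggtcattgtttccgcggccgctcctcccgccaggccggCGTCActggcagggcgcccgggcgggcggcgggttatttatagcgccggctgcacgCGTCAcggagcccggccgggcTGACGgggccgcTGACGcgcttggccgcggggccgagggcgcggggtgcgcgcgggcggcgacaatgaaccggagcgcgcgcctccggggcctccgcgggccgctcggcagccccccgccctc
Nr4a3, chr4:48045055-48045304, plus strand: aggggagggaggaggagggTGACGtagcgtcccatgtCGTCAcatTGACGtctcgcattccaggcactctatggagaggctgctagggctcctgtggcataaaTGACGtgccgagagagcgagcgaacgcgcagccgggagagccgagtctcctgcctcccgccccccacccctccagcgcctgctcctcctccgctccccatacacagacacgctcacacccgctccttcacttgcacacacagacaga
Each of the 3 windows held 4 matches that do not overlap. Of 32817 windows of 250 bases before annotated start sites, 17.7% held at least 1 match and 0.137% held 4 or more. Of 4 genes of the NR4A and EGR list that were read, 4 had a match in at least 1 window; Egr2, with several annotated start sites, had at most 2 in a window.

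In the metallothionein windows, capitals mark TGCNCNC on either strand, a looser pattern than the metal response element core TGCRCNC, where R is A or G.
Mt1, chr8:94178839-94179088, plus strand: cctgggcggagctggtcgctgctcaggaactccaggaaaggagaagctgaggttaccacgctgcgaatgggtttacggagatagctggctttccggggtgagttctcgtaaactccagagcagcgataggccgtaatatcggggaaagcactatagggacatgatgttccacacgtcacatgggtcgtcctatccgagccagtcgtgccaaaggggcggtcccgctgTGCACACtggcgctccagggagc
Mt2, chr8:94172368-94172617, plus strand: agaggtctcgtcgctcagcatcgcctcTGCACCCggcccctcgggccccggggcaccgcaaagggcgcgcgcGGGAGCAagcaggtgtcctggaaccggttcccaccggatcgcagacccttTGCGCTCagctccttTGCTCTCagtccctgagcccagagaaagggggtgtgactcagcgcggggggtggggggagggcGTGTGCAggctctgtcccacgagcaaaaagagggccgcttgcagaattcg
The Mt1 window held 1 match to the looser pattern and the Mt2 window 5, of which TGCTCTC and GGGAGCA do not match the core. Matches outside the windows were not counted for either gene. Of all windows, 44.4% held a match and 0.344% held 5 or more. Of the 6 genes of the metallothionein and zinc list, 4 had a match in at least 1 window, and Mtf1 and Slc39a10 had none in these windows. In the Hspe1 window, capitals mark GAANNTTC, the core of the heat shock element, which reads the same on both strands.
Hspe1, chr1:55087898-55088147, plus strand: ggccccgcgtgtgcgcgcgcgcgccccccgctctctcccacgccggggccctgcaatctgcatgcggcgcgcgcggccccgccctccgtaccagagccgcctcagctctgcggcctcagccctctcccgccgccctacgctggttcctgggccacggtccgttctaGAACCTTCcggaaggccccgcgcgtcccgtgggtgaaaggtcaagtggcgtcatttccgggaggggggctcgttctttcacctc
The Hspe1 window held 1 match, and 6.69% of all windows held at least 1. Of 9 genes of the heat shock list that were read, 6 had a match in at least 1 window. A match is a run of letters and says nothing on its own about binding.

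Of 10000 genes tested, 532 were at least 2-fold higher in small intestine in both the shMdr1 and the shCD8 pair (5.32%), and 624 were at least 2-fold higher in spleen in both (6.24%). A further 494 genes were 2-fold apart in opposite ways in the 2 pairs (4.94%). The ratios were correlated between the pairs, which share no library, with Pearson's r = 0.256 and Spearman's rho = 0.216 over 10000 genes, and 56.74% of genes had the same sign. That share counts either direction, and the share of genes above 0 in both pairs alone is not given. Counts below of list members above 0 or below 0 in both pairs therefore lack a matched background. Counts of list members 2-fold higher or lower in both pairs should be read beside 5.32% and 6.24%. The correlations and the share with the same sign are values across genes, which are not independent. The pairs were more alike among abundant genes. At a mean of 100 CPM or more (1330 genes), 71 genes were higher in small intestine in both pairs, 25 were higher in spleen, and 17 went opposite ways, with r = 0.463. At that level the median log2 ratio of all genes was 0.45 in the shMdr1 pair and 0.10 in the shCD8 pair, so an abundant gene's ratio in the shMdr1 pair stands on a raised median.

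No gene passed an adjusted p of 0.05 in edgeR's quasi-likelihood test, in either direction (0% of 10000). The smallest adjusted p was 0.213, and 550 genes had an unadjusted p under 0.05, 375 of them higher in small intestine. DESeq2 with the same design gave an adjusted p to 3408 genes, of which 76 were called higher in small intestine (2.23%) and 33 were called on the spleen side (0.968%). Of these 109 genes, 97 were at least 2-fold apart the same way in both pairs. The DESeq2 contrast and the pair ratios compare the same 4 libraries, so this overlap is not separate support. The 4 Asbt-/- libraries fitted alone with the hairpin as a term gave 55 and 21 edgeR calls on 1 residual degree of freedom, and 0 without that term. Values below are therefore given for each library, and no gene is said to have passed the edgeR test. Where libraries of the tissues are said not to overlap, this describes 2 libraries against 2 and is not a test. Of the 532 genes 2-fold higher in small intestine in both pairs, 513 did not overlap, as did 587 of the 624 on the spleen side. The share of all tested genes without overlap is not given, so lack of overlap does not set a gene apart.

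**Figure D1:**
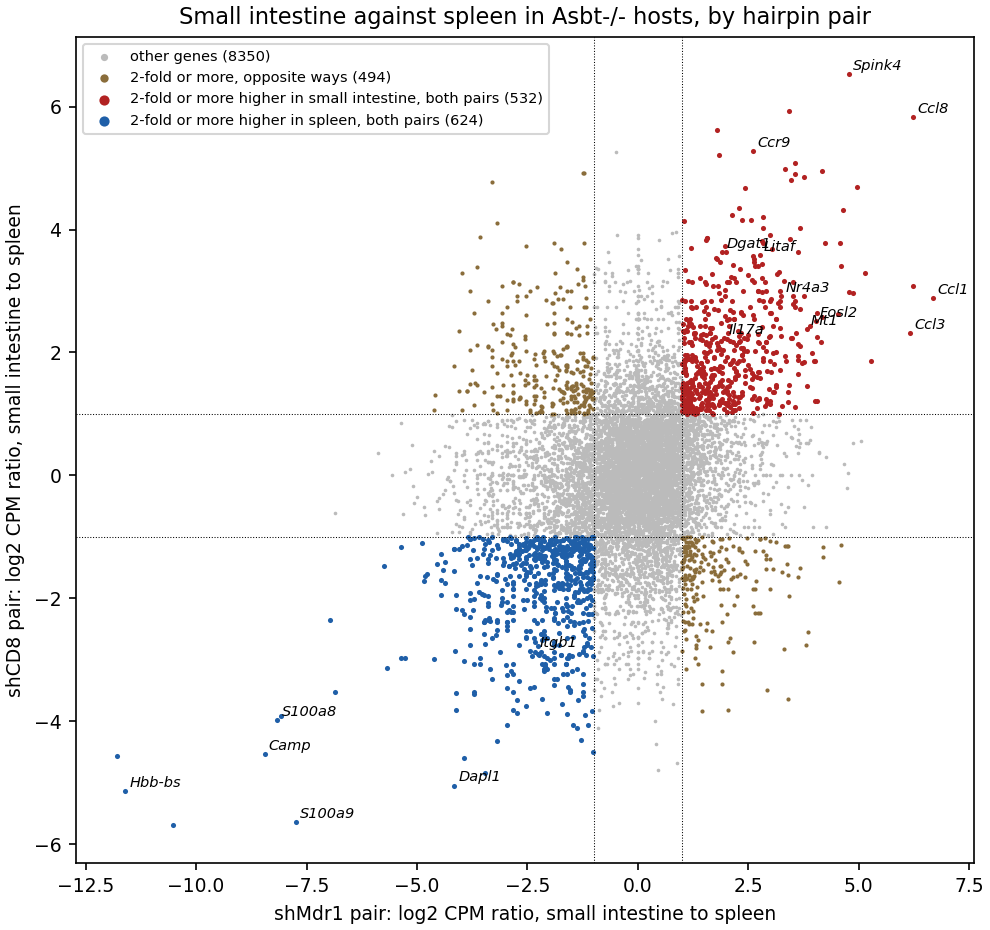
Log2 CPM ratio of small intestine to spleen in the shMdr1 pair (x axis) against the shCD8 pair (y axis) for 10000 tested genes in Asbt-/- hosts, 1 point per gene, with dotted lines at 2-fold. The 532 red genes and 624 blue genes are 2-fold or more apart the same way in both pairs, and the 494 brown genes go opposite ways.

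The sorted cells had the markers of CD4 T cells in every library. All 15 genes of the CD4 T cell identity list had counts in all 4 libraries, and none was 2-fold apart in both pairs. Cd4, the co-receptor that defines the cells, stood at 134 and 177 CPM in small intestine and 137 and 108 CPM in spleen. The list's median log2 fold change was 0.12, against -0.02 for all tested genes, and the signs of the pairs differed for 11 of the 15. Its summed level was 7347 to 11160 CPM in small intestine and 7856 to 8290 CPM in spleen, so the ranges overlapped.

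Abcb1a encodes the transporter that shMdr1 targets. Abcb1a had 40.4 and 90.98 CPM in small intestine and 22.2 and 29.7 CPM in spleen. In each tissue the shMdr1 library held the lower level. Each small intestine library stood above both spleen libraries, with log2 ratios of 0.84 and 1.59, and the fitted log2 fold change was 1.28 ± 0.70 (SE; adjusted p = 0.991, edgeR). Its close paralog Abcb1b, with which reads may be shared, had 17.8 and 29.9 CPM in small intestine and 4.31 and 8.62 CPM in spleen. Of the 12 ABC exporter genes tested, Abcb1b alone was 2-fold apart in both pairs. Abca7, a lipid transporter, had 32.5 and 82.2 CPM in small intestine and 281 and 85.7 CPM in spleen, so shMdr1 spleen stood apart from the other 3 libraries.

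The control hairpin is directed at CD8. Its gene Cd8a had no count in either spleen library and 70 and 57 counts in small intestine, at least 31.3-fold higher against a floor of 3 counts over the spleen libraries. Its level with shCD8 in small intestine, 22.7 CPM, was near the 27.7 CPM with shMdr1. Cd8b1, the other chain of CD8, had 0 and 6 counts in small intestine and 1 and 2 in spleen. Slc10a2, deleted in these hosts, had 1 and 0 counts in small intestine and 0 and 3 in spleen.

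The NR4A receptors, which T cell receptor signalling induces within hours, were higher in small intestine in both pairs. Nr4a3 had 531 and 561 CPM in small intestine and 54.8 and 73.3 CPM in spleen, a log2 fold change of 3.11 ± 0.35 (SE; adjusted p = 0.213 in edgeR and 6.73e-10 in DESeq2). Nr4a1 (Nur77), widely used as a reporter of recent receptor signalling, had 460.4 and 528 CPM against 89.9 and 124 CPM, with log2 ratios of 2.35 and 2.08. Nr4a2 had 251 and 283 CPM against 46.8 and 59.4 CPM. For each of the 3 the lowest small intestine library stood more than 2-fold above the highest spleen library.

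The EGR genes differed from each other. Egr2, which restrains effector T cells, had 80.04 and 152 CPM in small intestine and 12.3 and 11.97 CPM in spleen, with log2 ratios of 2.61 and 3.57. Egr1 had 375 and 268 CPM against 325 and 309 CPM, so its libraries overlapped. Of the 5 NR4A and EGR genes tested, 4 were 2-fold higher in small intestine in both pairs and were called by DESeq2. The list's median log2 fold change was 2.31.

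The AP-1 factors differed among themselves. Fosl2 (Fra-2), a sustained AP-1 subunit, had 355 and 249.8 CPM in small intestine and 20.9 and 43.1 CPM in spleen, with a log2 fold change of 3.22 ± 0.51 (adjusted p = 0.213 in edgeR and 1.7e-06 in DESeq2). Atf3, a stress-induced partner of AP-1, had 222 and 149 CPM against 78.8 and 45.01 CPM. Maff, a small leucine zipper factor, had 40.4 and 62.3 CPM against 16.6 and 15.3 CPM. Those 3 were the members that were 2-fold higher in both pairs, of 11 tested. Fos, the best known immediate-early gene, went the other way, with 1887 and 1825 CPM in small intestine and 1999.9 and 3398 CPM in spleen. Junb, an abundant dimer partner, had 789.7 and 856 CPM against 968 and 879.6 CPM. The list's median was 0.26.

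Of the 17 cAMP signalling genes tested, 12 were above 0 in both pairs, none was below 0 in both, and 4 (Crem, Penk, Pde4a and Pde4d) were 2-fold higher in both; the median was 0.85. Crem, a cAMP-responsive factor whose short form represses its own targets, had 325 and 317 CPM in small intestine and 47.4 and 43.1 CPM in spleen, with log2 ratios of 2.76 and 2.85. Penk, which encodes the opioid precursor proenkephalin, had 63.8 and 104 CPM against 4.31 and 26.3 CPM. Rgs2, a brake on G protein signalling, had 996 and 854 CPM against 427 and 486 CPM, under 2-fold in the shCD8 pair. DESeq2 called Crem (adjusted p = 4.36e-07) and Penk (0.000438) and did not call Rgs2 (0.0779). The kinase subunit gene Prkar1a lay under 2-fold, with log2 ratios of 0.86 and 0.69.

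NF-kB genes differed by less. Of 16 tested, 13 were above 0 in both pairs, with a median of 0.77. Those 2-fold higher in both numbered 2, beside 5.32% of all tested genes. The anti-apoptotic gene Birc3 had 179.9 and 212 CPM in small intestine and 74.5 and 77.1 CPM in spleen. Rel, the subunit induced on T cell activation, had 222 and 229 CPM against 96.6 and 98.2 CPM. Tnfaip3 (A20), which switches the pathway off, had 2061 and 2631 CPM against 1319.7 and 1788 CPM. In each of these genes the small intestine libraries stood above the spleen libraries without overlap.

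**Figure D2:**
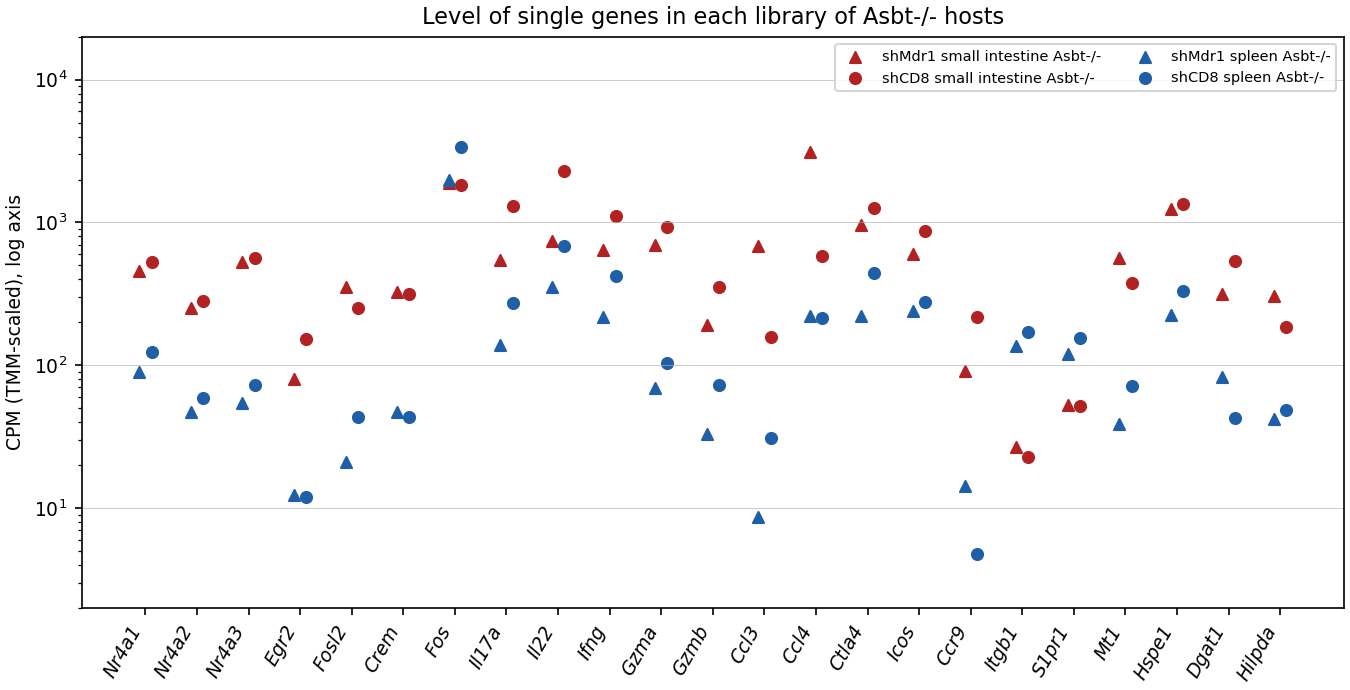
CPM on a log axis of 23 genes in each library of Asbt-/- hosts, red for small intestine and blue for spleen, triangles for shMdr1 and circles for shCD8. The 2 red points of Nr4a1, Nr4a2, Nr4a3, Crem and Hspe1 lie close together above the 2 blue points, Itgb1 and S1pr1 are reversed, and Fos is not higher in small intestine.

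The cytokine genes of Th17 cells differed among themselves. Il17a, the defining cytokine of Th17 cells, had 545 and 1295 CPM in small intestine and 139.7 and 274 CPM in spleen, with log2 ratios of 1.96 and 2.23 (log2 fold change 2.10 ± 0.29; adjusted p = 0.213 in edgeR and 1.9e-07 in DESeq2). Within each tissue the shCD8 library held the higher level. Il22, a cytokine that acts on epithelium, had 745 and 2309 CPM against 354 and 685 CPM, with reads that may be shared with its copy Iltifb. The libraries of Il22 did not overlap between tissues, but its higher spleen value lay close under its lower small intestine value. Csf2 (GM-CSF) had 114 and 43.1 CPM against 16.00 and 34.00 CPM, so its difference lay in the shMdr1 pair. Il17f, a close relative of Il17a, went opposite ways, with 20.6 and 138 CPM against 41.9 and 13.4 CPM. Of the 16 Th17 genes tested, 4 were 2-fold higher in both pairs, 5 had opposite signs and 1 was below 0 in both, with a median of 0.65.

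Ifng, the Th1 cytokine, had 645 and 1111 CPM in small intestine and 217 and 419 CPM in spleen, with log2 ratios of 1.57 and 1.40 (adjusted p = 0.811, edgeR; 0.197, DESeq2). Hopx, a marker of repeatedly stimulated Th1 cells, had 191 and 265 CPM against 86.8 and 100.1 CPM. Tbx21, the master regulator of Th1 cells, was low, at 49.9 and 19.6 CPM against 29.5 and 14.4 CPM. Of 11 tested Th1 genes, 3 were 2-fold higher in both pairs, Ifng and Hopx among them, and the list's median was 0.57. The libraries of Tbx21 overlapped between tissues, while those of Ifng did not.

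Among cytotoxic granule genes, Gzma and Gzmb were apart between the tissues. Gzma had 695 and 935 CPM in small intestine and 69.6 and 104 CPM in spleen, with log2 ratios of 3.31 and 3.16. Gzmb, the granzyme that cleaves caspases, had 192 and 356 CPM against 33.2 and 72.3 CPM (adjusted p = 0.213 in edgeR and 6.33e-06 in DESeq2). Srgn, the proteoglycan that packs granzymes, had 4139 and 2908 CPM against 1418 and 1949 CPM. Nkg7, a granule membrane protein, had 2047 and 465 CPM against 554 and 404 CPM, so its libraries overlapped. Gzma and Gzmb were the 2 of 9 tested genes that were 2-fold higher in both pairs, and 7 were above 0 in both; the median was 1.20. Klrd1, an NK receptor gene that some T cells share, had 82.4 and 68.2 CPM against 24.01 and 51.7 CPM, while Ncr1, which defines NK cells, had no count in any of the 4.

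Other cytokines were mostly moderate. Areg, a tissue-repair ligand of the EGF receptor, had 160.5 and 246 CPM in small intestine and 36.9 and 53.6 CPM in spleen, with log2 ratios of 2.09 and 2.18 (DESeq2 adjusted p = 0.0191). Il10, a suppressive cytokine, had 35.3 and 39.9 CPM against 6.16 and 9.58 CPM. Tnf had 211 and 185 CPM against 127 and 111 CPM. Of 15 genes tested, 10 were above 0 in both pairs and 3 were 2-fold higher in both, with a median of 0.96.

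Chemokine ligand genes had the highest median of any list of more than 5 tested genes that were not markers of other cells, at 2.8. Of 11 tested, 10 were above 0 in both pairs and 7 were 2-fold higher in both. Ccl3, an inflammatory chemokine, had 682 and 159 CPM in small intestine and 8.62 and 31.1 CPM in spleen. Ccl4, its neighbour in function, had 3122 and 587 CPM against 219.8 and 213 CPM. Xcl1, which draws XCR1+ dendritic cells, had 705 and 209.5 CPM against 73.9 and 42.6 CPM. For these 3 the shMdr1 library of small intestine held the higher level, more than 3-fold above the shCD8 library, so the size of the ratio depends on the hairpin pair. Ccl1, a ligand of CCR8, had 474 and 282 CPM against 3.69 and 37.3 CPM. Ccl5, the most abundant member, had 5975 and 3292 CPM against 1711 and 2005 CPM, with a log2 ratio of 0.72 in the shCD8 pair. Macrophages and dendritic cells also make several of these ligands, and the summed level of the myeloid and antigen-presenting markers was 1563 to 1795 CPM in small intestine against 593 to 600 CPM in spleen; their part in the chemokine values was not tested.

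Several receptor genes of activated T cells were higher in small intestine. Ctla4, the inhibitory receptor that competes with CD28, had 968 and 1272 CPM in small intestine and 223 and 443 CPM in spleen, with log2 ratios of 2.11 and 1.52 (adjusted p = 0.213 in edgeR and 1.36e-05 in DESeq2). Icos, a costimulatory receptor, had 599.9 and 876 CPM against 239 and 279 CPM. Tnfrsf9 (4-1BB) had 90.3 and 67.8 CPM against 12.9 and 20.6 CPM. The decoy receptor gene Il1r2, which binds IL-1 without signalling, had 118 and 372 CPM against 33.9 and 31.1 CPM. Of the 12 costimulatory and IL-2 receptor genes tested, 6 were 2-fold higher in both pairs, 2 had opposite signs, and the median was 1.16; DESeq2 called 4. Tnfrsf25 (DR3), a TNF receptor family member, was below 0 in both pairs, with 17.8 and 37.5 CPM in small intestine and 54.8 and 67.99 CPM in spleen.

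Inhibitory receptors differed in direction. Of 14 tested, 4 were 2-fold higher in both pairs, 1 was lower, and 6 had opposite signs. Cd160, which is shared with gut intraepithelial lymphocytes, had 121 and 104 CPM in small intestine and 19.1 and 16.3 CPM in spleen. Btla, which binds HVEM, had 21.8 and 15.6 CPM against 52.3 and 49.3 CPM. Pdcd1 (PD-1) was low in every library, at 13.5 and 5.99 CPM against 5.54 and 7.18 CPM.

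Foxp3, the regulator of regulatory T cells, had 22.6 and 40.3 CPM in small intestine and 6.16 and 22.98 CPM in spleen, so its libraries overlapped (log2 fold change 1.56 ± 1.34; adjusted p = 1, edgeR). Without the shMdr1 small intestine library its log2 fold change in the fit with the Asbt+/+ libraries was -0.01. The shCD8 pair by itself was higher in small intestine, at 40.3 against 22.98 CPM. The fitted value thus depended on which libraries were in the fit. Of the 10 regulatory T cell genes tested, Ctla4, Il2ra and Il10 were 2-fold higher in both pairs and Nrp1, a marker of thymus-derived regulatory T cells, was 2-fold lower. Il2ra had 54.7 and 66.6 CPM against 4.31 and 25.4 CPM, and Nrp1 had 23.8 and 18.4 CPM against 55.4 and 49.8 CPM. Activated effector cells also express Ctla4, Il2ra and Il10.

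Ccr9, the small intestine homing receptor, had 91.5 and 219 CPM in small intestine and 14.2 and 4.79 CPM in spleen. Its log2 ratios were 2.62 and 5.27 (log2 fold change 3.77 ± 0.78; adjusted p = 0.381 in edgeR and 0.000154 in DESeq2). The libraries were far apart, and the lower small intestine library stood more than 6-fold above the higher spleen library. The integrin genes of gut homing did not follow it. Itga4, the α chain of α4β7, was lower in small intestine, at 106 and 138 CPM against 307 and 256 CPM. Itgb7, its partner, had 458 and 543 CPM against 1077 and 473 CPM. Itgae (CD103), which holds cells at the epithelium, had 91.9 and 103 CPM against 27.7 and 102 CPM, so only the shMdr1 pair was apart.

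The residency genes Cd69 and Rgs1 lay near 2-fold. Cd69, which retains cells in tissue by opposing S1PR1, had 1059.5 and 1611 CPM in small intestine and 498 and 879.6 CPM in spleen. Rgs1, a brake on chemokine receptors, had 1001 and 1674 CPM against 419 and 885 CPM (DESeq2 adjusted p = 0.0314). Zfp683 (Hobit), a residency factor, had 33 counts in the small intestine libraries together and 1 in spleen, a ratio of 24.4 with a 95% counting interval of 4.08 to 991. Of 14 gut homing and residency genes tested, 4 were 2-fold higher in both pairs, and Gpr15, a receptor for homing to the large intestine, was lower, with 11 counts over both spleen libraries and 0 over both small intestine libraries (at least 4.97-fold). The list's median was 0.87.

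Itgb1, the β1 integrin chain that pairs with α4 to form VLA-4, was higher in spleen. Itgb1 had 26.5 and 22.7 CPM in small intestine and 136 and 171 CPM in spleen, with log2 ratios of -2.32 and -2.87 (adjusted p = 0.486 in edgeR and 0.0148 in DESeq2). S1pr1, which lets T cells leave tissue for the circulation, had 52.7 and 51.9 CPM against 120.0 and 156 CPM. Neither gene's libraries overlapped. Klf2, which drives transcription of S1pr1, was close between tissues, at 650.2 and 731 CPM against 632 and 1007 CPM, and Il7r had 294 and 255 CPM against 358 and 233 CPM. Of the 19 lymphoid homing and memory genes tested, 2 were 2-fold lower in both pairs and 1, Cxcr4, was 2-fold higher, with a median of -0.28. Ccr7, a lymph node homing receptor, went opposite ways in the 2 pairs.

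Of the 3 metallothionein genes tested, whose products bind zinc and copper, Mt1 and Mt2 were higher in small intestine in both pairs and Mt3 was not. Mt1 had 563 and 375 CPM in small intestine and 38.8 and 71.3 CPM in spleen, with log2 ratios of 3.83 and 2.38 (adjusted p = 0.213 in edgeR and 7.72e-07 in DESeq2). Mt2 had 42.00 and 29.5 CPM against 3.69 and 3.35 CPM, and the groups did not overlap for either gene. Slc39a10, a zinc importer, was low and reversed, with 1 and 4 counts against 20 and 11. Mt3 was higher in small intestine in the shMdr1 pair alone, with 61 and 1 counts against 4 and 6. Mt3, Mtf1 and Slc30a1 had opposite signs in the pairs. The median log2 ratio of the 6 genes was 2.05 in the shMdr1 pair and -1.11 in the shCD8 pair.

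Most chaperone genes had ratios above 0. Of 12 tested, 11 were above 0 in both pairs, none had opposite signs, 4 were 2-fold higher in both, and the median was 0.95. Among all tested genes, 56.74% had the same sign in both pairs, and 59.02% of those at a mean of 100 CPM or more. Both shares count either direction, so they are not a matched background for a count above 0 alone. Hspe1, the co-chaperonin of mitochondria, had 1252 and 1355 CPM in small intestine and 226 and 331 CPM in spleen, a log2 fold change of 2.25 ± 0.29 (adjusted p = 0.213 in edgeR and 3.17e-08 in DESeq2). Its partner Hspd1 had 76.1 and 109 CPM against 44.3 and 29.7 CPM. The gene Hspa1b had log2 ratios of 1.29 and 1.00. Its near-identical copy Hspa1a, with which it may share reads, had log2 ratios of 1.34 and 1.34; both encode inducible HSP70. Hsf1, the factor that drives the response, was the member below 0 in both pairs.

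Of 13 tested genes of the unfolded protein and integrated stress response, 1 was 2-fold higher in both pairs, and the median was 0.48. Atf4, its translationally controlled factor, had 371 and 429 CPM in small intestine and 267 and 337 CPM in spleen. Of 15 NRF2 and antioxidant genes, 2 were 2-fold higher in both pairs, with a median of 0.56. Sqstm1, the autophagy receptor p62, was 1 of them, at 259.5 and 267 CPM against 124 and 119 CPM.

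Dgat1, which makes triglyceride, had 313 and 539.5 CPM in small intestine and 82.5 and 42.6 CPM in spleen, with log2 ratios of 1.91 and 3.63 (adjusted p = 0.213 in edgeR and 3.28e-06 in DESeq2). Hilpda, which blocks triglyceride breakdown, had 305 and 185 CPM against 41.9 and 48.8 CPM. The lipid droplet coat gene Plin2 was low, at 9.11 and 26.3 CPM against 2.46 and 0.958 CPM. Of 10 neutral lipid storage genes tested, 4 were 2-fold higher in both pairs, with a median of 0.41. In cholesterol synthesis 4 of 13 were 2-fold higher in both and 9 were above 0 in both, with a median of 0.72. Msmo1, an enzyme late in the pathway, had 43.98 and 60.7 CPM against 6.77 and 17.7 CPM; DESeq2 called no gene of that list.

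Glycolysis genes differed more in the shCD8 pair, with a median log2 ratio of 1.03 against 0.47 in the shMdr1 pair. Aldoa had 363 and 320.0 CPM in small intestine and 161 and 137 CPM in spleen, and Gapdh had 298 and 348 CPM against 154 and 173 CPM. Of 14 tested, 10 were above 0 in both pairs and 2 were 2-fold higher in both, with a median of 0.70. Gapdh, at log2 ratios of 0.95 and 1.00, lay just outside the 2-fold rule, and Hspa1b lay just inside it. On the spleen side mt-Co1 (-1.53 and -0.98) lay just outside and mt-Nd4 (-1.34 and -1.09) just inside.

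Receptors and targets of bile acids were barely measured in these cells. Of 16 genes on the list, 8 had a count in any of the 4 libraries and 4 were tested, none 2-fold apart in both pairs. The bile acid receptor gene Nr1h4 (FXR), Vdr and Nr1i2 (PXR) had 0 counts in all 4, which allows up to 3 counts per library. Rxrb, which encodes a shared partner of such receptors, had 18.2 and 16.4 CPM in small intestine and 35.1 and 20.6 CPM in spleen. Abcg1, a sterol exporter, had 7.13 and 5.19 CPM against 13.5 and 20.1 CPM.

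The remaining lists had few members 2-fold apart in both pairs. Of 29 cell cycle genes tested, none was 2-fold apart in both pairs and the median was -0.04. Pcna had 271 and 241 CPM in small intestine and 145 and 167 CPM in spleen, whereas Mki67 had 89.2 and 59.1 CPM against 125 and 111 CPM. Of 16 interferon-stimulated genes, Rsad2 (viperin) was 2-fold lower in both, at 0.396 and 4.39 CPM against 68.9 and 13.9 CPM, and the median was 0.02. In the BCL2 family 2 of 13 were 2-fold higher in both, with a median of 0.53. Bcl2a1b, whose near-identical paralogs may share its reads, had 254 and 149.6 CPM against 41.2 and 49.8 CPM. Of 21 cytosolic ribosomal protein genes none was 2-fold apart in both pairs, 11 were above 0 in both, and the median was 0.42.

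**Figure D3:**
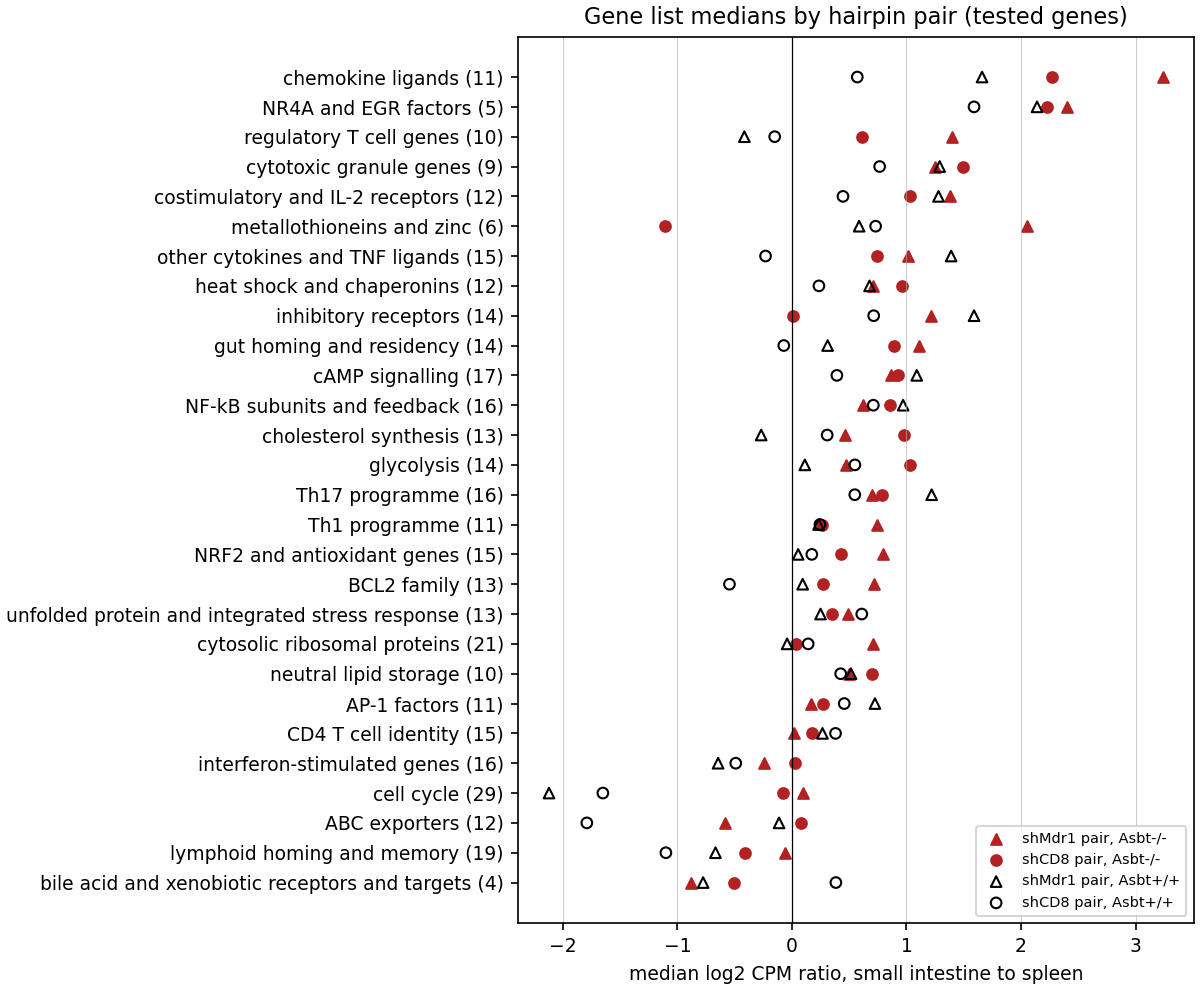
Median log2 CPM ratio of small intestine to spleen over the tested genes of each list, with the number tested in brackets, for lists with 4 or more tested genes that are not markers of other cells. Filled red points are the Asbt-/- pairs and open points the Asbt+/+ pairs, triangles for shMdr1 and circles for shCD8; chemokine ligands and NR4A and EGR factors lie highest in Asbt-/- hosts, and cell cycle genes lie near 0 there and below -1.5 in both Asbt+/+ pairs.

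The 10 genes with the largest weaker ratio on the small intestine side, among those at 10 CPM or more in both small intestine libraries, were Ccl8, Spink4, Cd8a, Fam71a, Ccl2, Csf2rb, Defa24, Adamdec1, Mef2c and Cxcl9. Each had 0 or 1 count in the spleen libraries together. Ccl8 and Ccl2, chemokines that monocytes and macrophages make, had 414 and 135 counts in the small intestine libraries together. Their ratios were 306 (95% counting interval 54.6 to 12100) and 99.7 (17.6 to 3970). Spink4, a goblet cell peptide, had 61 and 208 counts against 0, at least 66.2-fold. Defa24, a Paneth cell defensin of a family of near-identical genes, was at least 22.9-fold higher. Intervals and floors cover counting error only, since reads without molecular identifiers are not independent molecules.

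Several of these genes are known from cells other than T cells, and marker lists moved with the tissue. Of 19 myeloid and antigen-presenting markers, 8 of 16 tested were 2-fold higher in small intestine in both pairs, and the summed level was 1563 to 1795 CPM there against 593 to 600 CPM in spleen. H2-Ab1, an MHC class II chain, had 99.5 and 211 CPM against 16.00 and 11.01 CPM, and Lyz2, a macrophage lysozyme, had 177 and 287 CPM against 50.5 and 85.2 CPM. Of the 16 tested, 10 were above 0 in both pairs, 1 was below 0 in both and 5 had opposite signs. None of the 19 was at 0 in both small intestine libraries. The 22 epithelial markers summed to 67.8 to 101 CPM in small intestine and 22.5 to 43.1 CPM in spleen. Of 14 tested, 4 were above 0 in both pairs, 2 of them 2-fold or more, and 1 was below 0 in both. Tff3 had 79 and 20 counts in small intestine and Tff2 had 65 and 1, each with 0 and 0 in spleen. Epcam, Vil1, Krt8 and Fabp2 were at 0 in both small intestine libraries. The 8 stromal and endothelial markers summed to 40.0 to 63.9 CPM against 24.6 to 39.3 CPM. Of the 6 mast cell markers, Mcpt1, Mcpt2, Fcer1a and Tpsb2 were at 0 in all 4 libraries. Kit, the 1 tested, was 2-fold higher in both pairs, with 8 and 15 counts in small intestine and 0 and 2 in spleen. The part of these other cell types in the small intestine values above was not tested.

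On the spleen side the 10 genes named by the same rule were Hba-a2, S100a9, Hbb-bs, Hbb-bt, Camp, Dapl1, S100a8, Retnlg, Hba-a1 and Nme4. The 4 hemoglobin genes, which are near-identical within each pair of paralogs, were far higher in shMdr1 spleen than in shCD8 spleen. Hbb-bs had 5.94 and 12.8 CPM in small intestine and 21278 and 480.3 CPM in spleen. S100a8, an abundant neutrophil protein gene, had 4.75 and 29.5 CPM against 1622 and 481 CPM (adjusted p = 0.213 in edgeR and 4.5e-14 in DESeq2). Camp, the cathelicidin of neutrophil granules, had 515 and 42 counts in spleen and 0 in small intestine, at least 252-fold higher. Dapl1, a gene of naive and memory-like T cells, had 25 and 61 counts in spleen and 0 in small intestine, at least 38.8-fold higher. Nme4, a mitochondrial nucleotide kinase gene, had 24 and 25 counts in spleen and 0 in small intestine, at least 22.1-fold higher.

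Of 9 neutrophil markers tested, 8 were 2-fold higher in spleen in both pairs, as were 5 of 8 erythroid markers. The 14 neutrophil markers summed to 14.7 and 49.5 CPM in small intestine and 3066 and 876 CPM in spleen, and Camp, Retnlg, Mmp8, Ly6g and Cxcr2 were at 0 in both small intestine libraries. The erythroid markers summed to 44.8 and 49.5 CPM against 41670 and 1104 CPM. The B and plasma cell markers were low in all 4 libraries (26.7 to 94.3 CPM), with Ms4a1, Mzb1 and Pax5 at 0. In bulk RNA, fewer cells of a type and less RNA per cell cannot be told apart. Leaving hemoglobin, mitochondrial and Rn18s-rs5 counts out before scaling gave 522 and 662 genes 2-fold apart in both pairs.

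**Figure D4:**
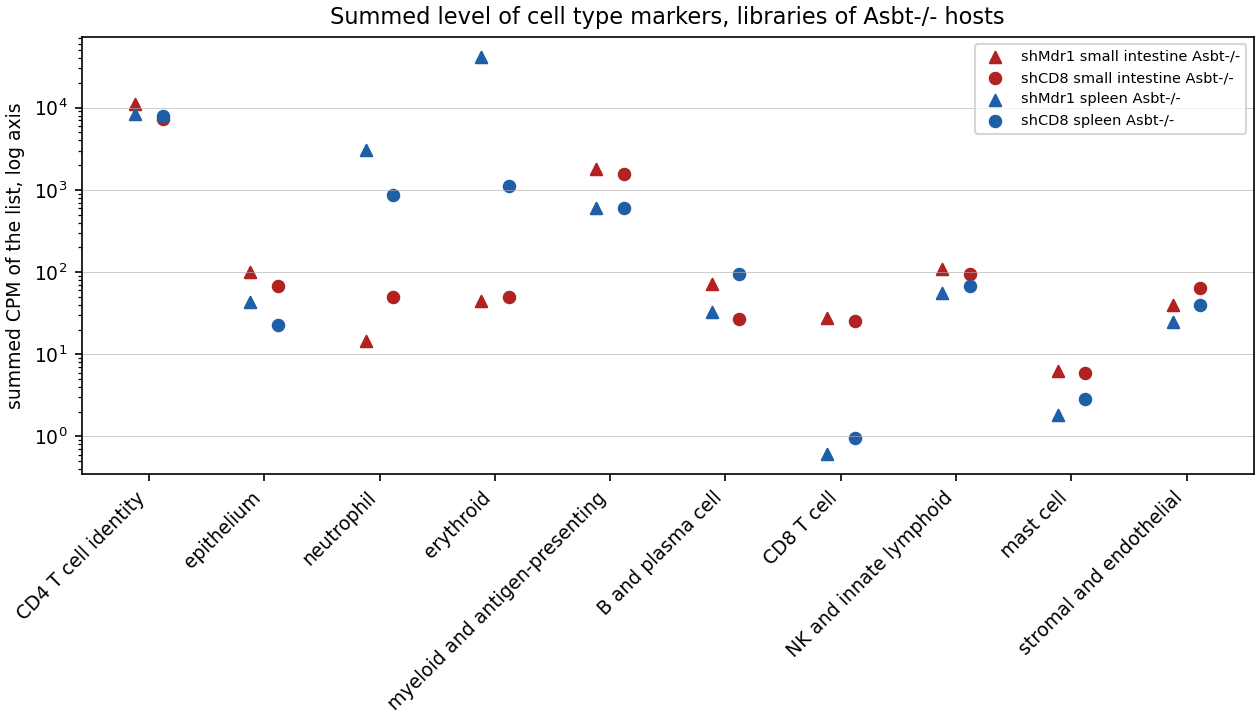
Summed CPM of CD4 T cell identity genes and of markers of other cell types on a log axis, in the 4 libraries of Asbt-/- hosts, red for small intestine and blue for spleen, triangles for shMdr1 and circles for shCD8. CD4 identity is level across the libraries, neutrophil and erythroid markers are higher in both spleen libraries, and myeloid and antigen-presenting markers are higher in both small intestine libraries.

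Mitochondrially encoded genes were higher in spleen. All 14 tested were below 0 in both pairs and 10 were 2-fold lower in both, with a median log2 fold change of -1.51. The complex I gene mt-Nd5 had 1234 and 1013 CPM in small intestine and 4474 and 2469 CPM in spleen (adjusted p = 0.477 in edgeR and 0.00121 in DESeq2). In Asbt+/+ hosts the median of the same genes was 0.73. Mitochondrial transcripts there took 18.3% and 7.06% of the counts in small intestine and 6.63% and 7.33% in spleen, so the shMdr1 small intestine library stood apart. Without that library the Asbt+/+ log2 fold change of mt-Co1 was 0.69, against 1.28 with it. The share of mitochondrial counts separated the tissues in Asbt-/- hosts, and its part in the other differences was not tested.

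Whether the tissue difference itself differs between hosts was tested as the tissue by host term. With edgeR 0 of 10000 genes passed (0%), the smallest adjusted p was 0.837, and 594 genes had an unadjusted p under 0.05; limma-voom gave 0. DESeq2 called 30 of 8642 genes (0.347%). The count depended on the Asbt+/+ small intestine libraries, with 9 edgeR calls without shCD8 and 1551 without shMdr1. Of the 532 genes 2-fold higher in small intestine in both Asbt-/- pairs, 115 were so in both Asbt+/+ pairs, where 455 were in all. Of the 624 on the spleen side 176 were, of 1383 in all.

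Several genes that were higher in small intestine of Asbt-/- hosts were so in Asbt+/+ hosts too. Nr4a3 had 363 and 357 CPM in small intestine and 28.7 and 53.7 CPM in spleen of Asbt+/+ hosts, a log2 fold change of 3.17. Il17a had 1055 and 2374 CPM against 136 and 396 CPM there, and Crem had 376 and 241 CPM against 25.4 and 39.6 CPM. The median host difference of the NR4A and EGR list was -0.06, where all tested genes had a median of 0.29.

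Cell cycle genes had the largest median host difference of any list with more than 10 tested genes, 2.04. Their median log2 fold change was -0.04 in Asbt-/- hosts and -2.06 in Asbt+/+ hosts. In edgeR 12 of 29 had an unadjusted p under 0.05 for the difference, beside 594 of all 10000 tested genes, with 0 past the adjusted threshold. The summed level was 2140 and 1450 CPM in small intestine and 1762 and 1588 CPM in spleen of Asbt-/- hosts, so the groups overlapped. In Asbt+/+ hosts it was 928 and 1092 CPM in small intestine and 3432 and 2687 CPM in spleen, with no overlap. Without the shCD8 small intestine Asbt+/+ library, which stood apart, the median difference was 2.12, and without the shMdr1 one it was 1.97.

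Single genes with the smallest p for the host difference are given next. Ccna2, a cyclin of S phase, had 61.4 and 29.1 CPM in small intestine and 49.2 and 26.8 CPM in spleen of Asbt-/- hosts, and 4.49 and 1.18 CPM against 115 and 72.2 CPM in Asbt+/+ hosts. Gzmk, a granzyme of memory cells, had 51.9 and 115 CPM against 28.3 and 40.2 CPM in Asbt-/- hosts and 5.78 and 9.86 CPM against 49.9 and 72.7 CPM in Asbt+/+ hosts. Art2a-ps, a pseudogene, had 53.1 and 176 CPM against 6.77 and 21.5 CPM in Asbt-/- hosts, and 7.70 and 19.7 CPM against 11.2 and 44.7 CPM in Asbt+/+ hosts. Ly6c2, a surface marker of effector cells, went opposite ways in the Asbt-/- pairs. In the other direction stood mt-Nd5, mt-Co1, the histone gene Hist1h1e, Prrc2c and Akap7, which were lower in small intestine of Asbt-/- hosts and higher there in Asbt+/+ hosts, by fitted fold change. Akap7 was near the floor in Asbt-/- hosts, with 2 counts in the small intestine libraries together and 10 in spleen. Its ratio there was 6.77, higher in spleen, with a 95% counting interval of 1.44 to 63.6. The adjusted p in edgeR was 0.837 for each of these 9 genes.

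**Figure D5:**
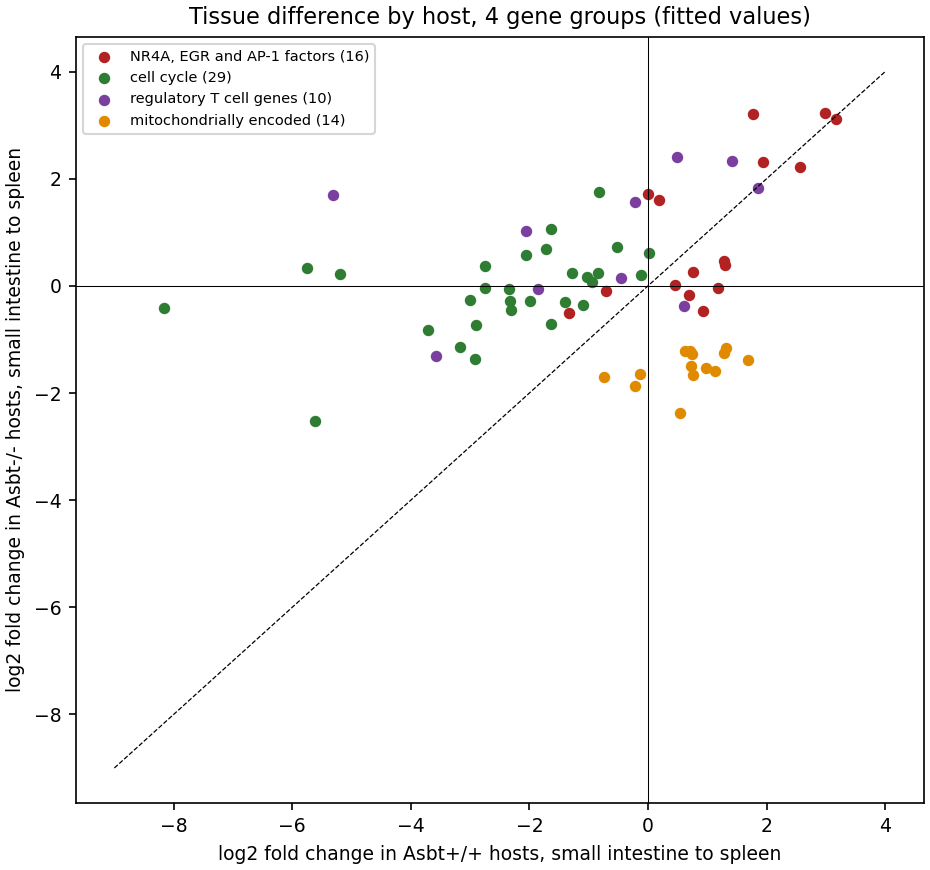
Fitted log2 fold change of small intestine against spleen in Asbt+/+ hosts (x axis) and Asbt-/- hosts (y axis) for 4 groups of genes, 1 point per gene, with the dashed line where both are equal. Cell cycle genes lie mostly left of 0, with a median near 0 on the y axis, mitochondrially encoded genes lie below 0 on the y axis and mostly above 0 on the x axis, and no gene of these groups passed the edgeR test of the difference.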

How the data were processed

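Gene expression was measured by RNA-seq of sorted CD4+ effector T cells. The SMART-Seq v4 and NEBNext Ultra II kits were used for the libraries, per the labels' protocols. The deposited values are raw counts per gene, 1 column per library. TopHat, HTSeq, DESeq2 and the build mm9 are named in the submitters' processing notes; roles, versions, gene annotation and strandedness were not given in the sources used here. Values of paralogs that are near-identical, and of overlapping or antisense genes, are therefore uncertain.

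Of 37411 genes, 17570 had a count and 10000 passed filterByExpr, holding 99.52% of the counts. Total counts ranged from 1685225 to 2767105 over the 8 libraries. All 8 libraries were fitted with edgeR 4.0.16 (R 4.3.3; TMM factors, quasi-likelihood test, Benjamini-Hochberg adjustment) with terms for hairpin and tissue by host, leaving 3 residual degrees of freedom. SE is the log2 fold change over the square root of F. Pair ratios are log2 CPM with a prior count of 2, without a test. Alternatives included DESeq2 1.42.0 and limma-voom (limma 3.58.1). The fit was tested on simulated data.

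The members and the 37 gene lists were chosen with earlier results of these data known, so lists are given by counts and medians. Named genes were a fixed set of 11, up to 10 per direction by the weaker pair ratio at 10 CPM or more in both libraries of the higher tissue, up to 5 per list by smallest p with the same sign in both pairs, and up to 5 per direction of the host difference; the second group skips gene models without a name and segments of antigen receptors, and none of its genes passed the edgeR test. Other genes in the text were chosen after their values were seen. Some genes are not reported here. A total of 0 columns could not be mapped to a sample.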

Additional observations from a re-analysis of the deposited data

Results flagged for a closer look

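For 2 gene lists the median ratio of small intestine to spleen was above 0 in both Asbt-/- pairs and below 0 in both Asbt+/+ pairs. Over the 10 tested regulatory T cell genes the fitted median was 1.29 in Asbt-/- hosts and -0.34 in Asbt+/+ hosts on the log2 scale, and the median host difference was 1.79. Neither list's difference was tested, and 0 of the 10 genes passed the edgeR test of the host difference. Without the shCD8 small intestine Asbt+/+ library the median host difference was 0.82, and without the shMdr1 small intestine Asbt-/- library 0.74. The 3 tested genes of the NK and innate lymphoid marker list had medians of 0.83 and -1.45 and a median host difference of 0.74. With 1 library left out at a time, and 3 or 4 genes tested, leaving out a library moved that value from -0.61 to 5.46, so its sign rests on single libraries.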

How the results depend on the processing

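With edgeR, 0 genes passed in either direction with DESeq2-style or upper quartile factors, without the hairpin term, with a hairpin effect in each tissue, without hemoglobin, mitochondrial and Rn18s-rs5 counts, among genes at a mean of 10 CPM or more, and in the 4 Asbt-/- libraries alone without hairpin. Other settings gave calls on the small intestine and on the spleen side as follows: 65 and 27 without a filter, 76 and 33 with DESeq2, 2 and 0 with limma-voom, 55 and 21 in the 4 Asbt-/- libraries alone with hairpin, and 28 and 11 without both small intestine Asbt+/+ libraries. Leaving out 1 library gave 0 to 73 and 0 to 34, with 0 and 0 without shMdr1 or shCD8 small intestine or shMdr1 spleen Asbt-/-, 66 and 30 without shMdr1 and 73 and 34 without shCD8 small intestine Asbt+/+, 15 and 8 without shMdr1 and 15 and 7 without shCD8 spleen Asbt+/+, and 0 and 6 without shCD8 spleen Asbt-/-. The cause was not tested. Of the 92 genes called without a filter, 76 were also called by DESeq2. Host differences numbered 30 with DESeq2 and 0 to 1551 when 1 library was left out (1551 without shMdr1 and 9 without shCD8 small intestine Asbt+/+). The 2-fold counts in both pairs moved from 532 and 624 to 306 and 264 with a prior count of 10, to 143 and 125 at 4-fold, and to 306 and 259 at a mean of 10 CPM or more, a minimum chosen after seeing the data. The log2 fold change of Ccna2 was -0.07261 with a hairpin effect in each tissue. Leaving out 1 library moved that of Foxp3 from -0.00707 (without shMdr1 small intestine Asbt-/-) to 2.483.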

Other observations

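Some genes outside the fixed lists had the same direction in both hairpin pairs and were among those that DESeq2 called; they were chosen after their values were seen. Litaf, which encodes a membrane protein of late endosomes, had 122 and 78.6 CPM in small intestine (shMdr1, then shCD8) and 17.2 and 5.75 CPM in spleen (adjusted p = 2.17e-05, DESeq2; 0.213, edgeR). Neurl3, an E3 ubiquitin ligase gene, had 163 and 177 CPM against 12.9 and 23.9 CPM. Rbpj, which encodes the DNA-binding partner of Notch, had 67.4 and 128 CPM against 12.9 and 27.8 CPM. Gch1, the first enzyme of tetrahydrobiopterin synthesis, had 141 and 103 CPM against 33.2 and 20.1 CPM. The libraries of the 2 tissues did not overlap for any of these 4 genes. The same held for 513 of the 532 genes 2-fold higher in both pairs, so this adds no support.

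Irf4, a transcription factor whose level follows the strength of T cell receptor signalling, had 191 and 261 CPM in small intestine and 46.8 and 44.5 CPM in spleen, with log2 ratios of 2.01 and 2.53 (adjusted p = 0.453, edgeR; 0.00618, DESeq2). In Asbt+/+ hosts its log2 ratios were 1.20 and -0.21. The difference between hosts did not pass the edgeR test.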
